A study of Mus musculus with 8 samples.

Results

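The nuclear genes of the respiratory chain were followed in stimulated immune cells of male and female mice labelled TCR1640 or SJL/J. Members were the protein-coding genes whose GENCODE mouse M21 symbols name a subunit of complexes I to V or a complex I assembly factor: Nduf genes of the a, b, c, s and v series, Sdha to Sdhd, Uqcr, Cox4 to Cox8, and Atp5. The rule used no measured value and found 93 of the 52636 genes in the deposited table. They comprised 29 accessory and 7 core subunits of complex I, 8 complex I assembly factors, 4 subunits of complex II, 8 of complex III, 20 of complex IV and 17 genes of complex V. Of these, 89 passed the filter on low counts and could be compared.

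Cells came from the spleens and lymph nodes of pre-symptomatic mice aged 35 to 55 days and grew for 4 days with anti-CD3 (1 μg/ml), IL-23 (20 ng/ml), IL-6 (20 ng/ml), TGF-β (4 ng/ml) and IL-12 (3 ng/ml), a TH1/TH17 stimulation shared by every group. TCR1640 mice are known to carry a rearranged T cell receptor transgene that recognises a myelin antigen, on an SJL/J genetic background, and wild-type (WT) SJL/J mice were the control. The deposited table holds 8 columns of whole-number counts per gene, 2 for each of TCR1640 females, TCR1640 males, SJL/J females and SJL/J males. Within a group, the 2 columns differed by barely more than the noise of counting (chi-square per degree of freedom 1.05 to 1.08 within groups, 3.12 to 17.1 between groups), so they were summed and counted as 1 sample, which leaves n = 1 per group.

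Column totals ran from 3765291 to 5116467 counts, and members held 0.205% to 0.257% of each group's counts. The sex labels were checked with Eif2s3y, a Y-linked gene, which had 0 counts in the female columns and 87 to 124 in the male ones. The T cell receptor joining segment Traj43 held 5.04% and 2.91% of joining-segment counts in the female and male libraries labelled TCR1640, against 75.6% and 79.2% in those labelled SJL/J. A line with 1 transgenic receptor would show the higher share, so this goes against the strain labels, and every strain direction below is that of the labels. The library kit keeps strand, but the strand setting of the counting is not given in the sources used here. Whether a member's counts come from its own strand cannot be told apart from counting on the opposite strand, with or without overlap. All levels and ratios below are those of the counts as deposited. Of the members, 29 have exons overlapped by a gene of the opposite strand. Genes with such overlap, or not found in GENCODE M21, held 68.1% to 69.9% of each group's counts.

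Complexes I to IV pass electrons from NADH and succinate to oxygen, complexes I, III and IV also pump protons out of the mitochondrial matrix, and complex V, the ATP synthase, uses the returning protons to make ATP. Complexes I, III, IV and V are built from nuclear and mitochondrial gene products, while complex II is wholly nuclear. T cells that are activated and divide are known to enlarge their mitochondria and to use both respiration and glycolysis. The 13 subunits encoded by mitochondrial DNA were each listed at 0 in all 8 columns, as were all 37 mitochondrial genes of the table, so the chain is described from its nuclear side alone.

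Levels per length were highest for a few small subunits and declined gradually below them. Length was the union of all annotated exons, which can exceed that of the transcript made, so the order depends on the annotation. It was 572 bp for Ndufa2, 4237 for Atp5b and 4912 for Atp5g1. Atp5b had the most counts of the members, 5400 over all columns. As counts per 1000000 (CPM) per kilobase of exon, averaged over the 4 groups, the highest were Ndufa2 at 70.7, an accessory subunit that overlaps Tmco6 on the other strand, and Uqcrh at 58.2, the hinge protein of complex III. Cox4i1, which overlaps Emc8, followed at 48.9, Ndufb11 at 46.7 and Cox6a1 at 45.8. The catalytic subunits of complex V lay close together, at 37.7 for Atp5b (beta) and 38.6 for Atp5a1 (alpha). Where tissue isoforms exist, the broadly expressed form was the higher in the Cox4i, Cox6a, Cox6b, Cox7b and Cox8 families: Cox4i1 against 2.08 for Cox4i2, Cox6a1 against 0.147 for Cox6a2, Cox6b1 at 36.3 against 3.02 for Cox6b2, Cox7b at 24.0 against 0 for Cox7b2, and Cox8a at 34.1 against 2.57 for Cox8b. Cox7a1, known as the heart and muscle isoform, stood at 24.8, above Cox7a2 at 11.9. Among the 3 genes for subunit c of complex V, Atp5g3 led at 27.7, Atp5g2 stood at 7.29 and Atp5g1 at 0.437. Differences in level between genes were not tested.

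The members that did not pass the filter were isoforms known from other tissues. Cox6a2, the muscle form, had 4 counts over all columns, in the males labelled TCR1640. Cox8c had 2 counts, both in an SJL/J female column, and Cox7b2 was at 0 in all 8 columns. Ndufa4l2, known from hypoxia and from pericytes, had 15 counts spread over all 4 groups, and its exons overlap Shmt2.

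Summed over the members, the level was lowest in the libraries labelled TCR1640 female and highest in those labelled SJL/J male. The column sums were 2051 and 2099 CPM in TCR1640 females, 2166 and 2225 in TCR1640 males, 2213 and 2271 in SJL/J females, and 2514 and 2523 in SJL/J males. Columns of different groups overlapped only between TCR1640 males and SJL/J females. Complex V moved most in absolute terms, from 661 and 690 CPM in TCR1640 females and 753 and 775 in TCR1640 males to 791 and 780 in SJL/J females and 898 and 904 in SJL/J males. The accessory subunits of complex I ranged from 576 to 606 CPM in the 4 columns labelled TCR1640 and from 599 to 691 in those labelled SJL/J. Complex II stayed within 94.1 to 105 CPM in all 8 columns, with its lowest values in the SJL/J female columns (95.1 and 94.1) and overlap among the other groups.

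**Figure D1:**
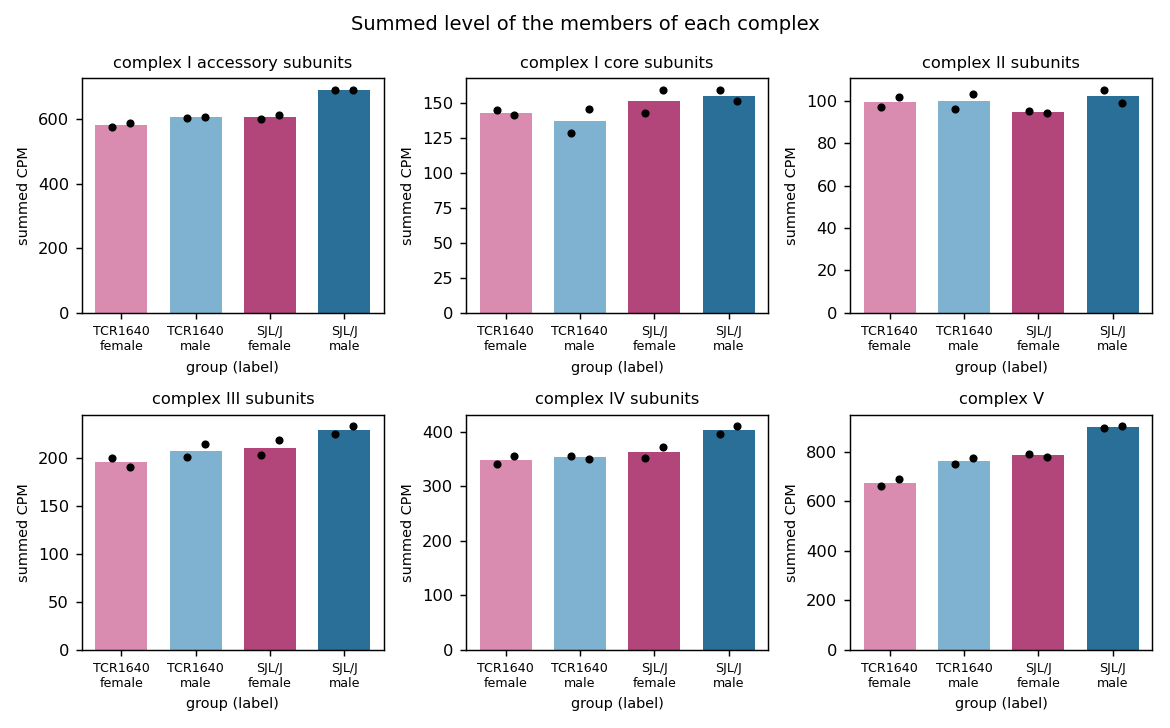
Summed level of the members of each complex, in CPM, by labelled group. Points are the 2 deposited columns of a group and bars their mean, with each vertical axis starting at 0. Complex V is lowest in TCR1640 females (661 and 690 CPM) and highest in SJL/J males (898 and 904), while complex II lies between 94.1 and 105 CPM throughout.

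The libraries labelled TCR1640 had lower levels of most members than those labelled SJL/J. As log2 ratios of TCR1640 over SJL/J on scaled library sizes, the median over the 89 members was -0.13 in females and -0.27 in males, against -0.01 and -0.03 over the 18391 genes tested. The ratio was below 0 for 58 members (65.2%) in females and 69 (77.5%) in males, against 50.5% and 51.7% of all genes. The sum of their counts was lower by -0.11 (95% counting interval -0.14 to -0.08) in females and by -0.20 (-0.23 to -0.17) in males. This sum weighs the most counted members most, among them Atp5b at -0.52 and Atp5a1 at -0.44 in females. By complex the female sums ran from -0.22 (-0.27 to -0.16) for complex V to 0.07 (-0.07 to 0.22) for complex II. In bulk samples, fewer cells of a type and less RNA per cell cannot be told apart.

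Few members differed by much within a sex. A member was called when the groups differed by at least 1.5-fold and the exact counting interval excluded equality. In females 0 members were called higher and 4 lower, against a background of 9.31% of all genes higher and 11.3% lower. In males 0 were called higher and 14 lower (15.7% of the 89), with a background of 11.2% and 13.7%. The share called lower was thus below the background in females and near it in males, and the share called higher was below it in both. With 1 sample per group these comparisons have no replicate check, and the intervals cover counting error only.

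**Figure D2:**
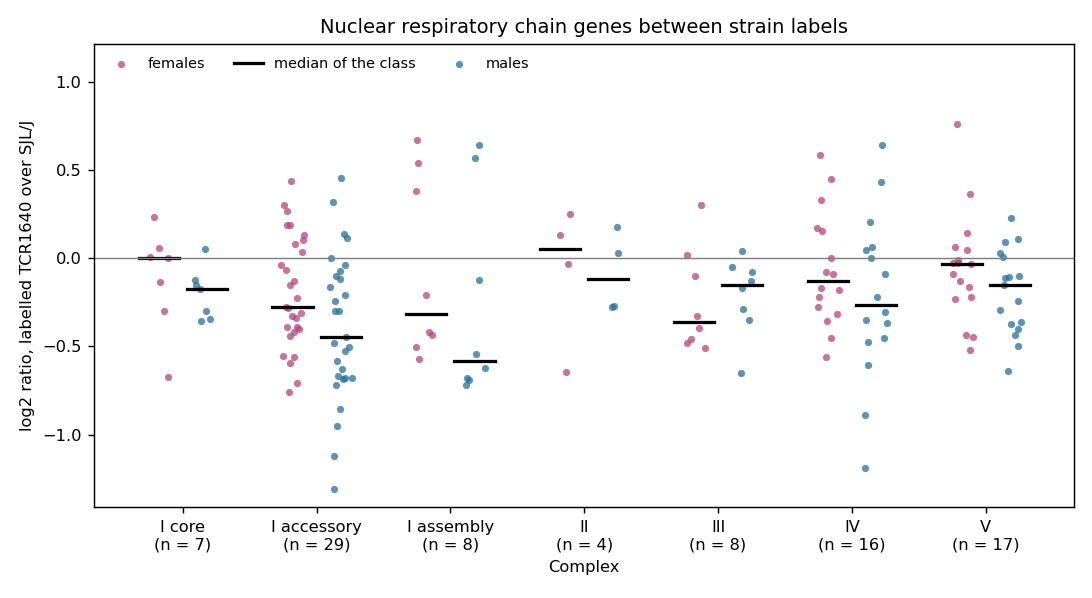
Log2 ratio of the libraries labelled TCR1640 over those labelled SJL/J for each member tested, by complex, in females and males. Each point is 1 member and black bars are class medians, which lie at -0.28 and -0.45 for the complex I accessory subunits and at -0.03 and -0.15 for complex V. Most points lie below 0.

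The average over both sexes came from an additive edgeR model of the 4 summed samples. In it 14 members fell and 1 rose in the libraries labelled TCR1640 at an adjusted p of at most 0.05 (edgeR's quasi-likelihood test, Benjamini-Hochberg over 18391 genes). The background was 13.3% of genes lower and 11.8% higher, so the share of members that fell, 15.7%, was close to it, while the share that rose, 1.12%, was below it. The model has 1 residual degree of freedom, which is the part of the strain difference that differs between sexes, so its p-values say nothing of the spread over mice. DESeq2 on the same samples called 0 of 88 members (lowest adjusted p = 0.0567, Atp5b), with 4.01% of genes higher and 4.37% lower. At an unadjusted p under 0.05, edgeR's test counted 25 of the 89 members, against 6338 of all 18391 genes. Entered as 8 separate columns, edgeR called 8 members higher and 30 lower of 85, with 25.1% of genes higher and 24.5% lower. Of the 15 members called, 7 passed in each of the 8 fits that left out 1 library: Atp5a1, Atp5b, Cox7b, Ndufa5, Ndufa9, Ndufb7 and Uqcrq. Leaving out 1 library lowers the depth of its group and is no replicate check.

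**Figure D3:**
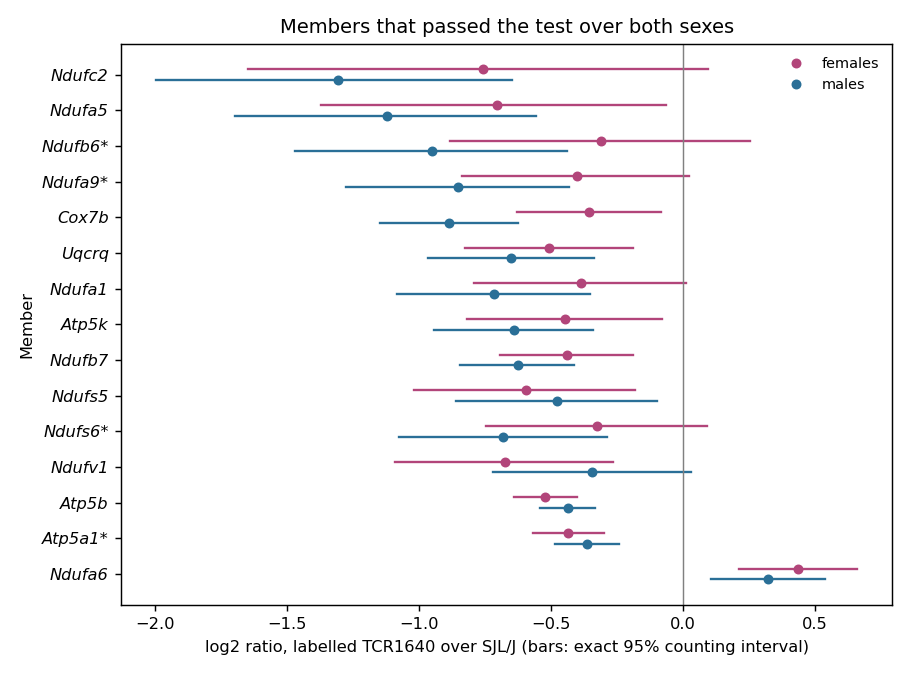
Log2 ratio of the libraries labelled TCR1640 over SJL/J in females and in males for the 15 members that passed edgeR's test over both sexes. Bars are exact 95% counting intervals and an asterisk marks a member that shares exon sequence with a gene on the opposite strand. Ndufa6 is above 0 in both sexes, and the other 14 have both point estimates below 0.

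In complex V the catalytic pair fell together. Atp5b (ENSMUSG00000025393, chromosome 10, 128083273 to 128090391 on GRCm38, plus strand) encodes the beta subunit, which holds the catalytic sites. Its columns read 119 and 124 CPM in TCR1640 females, 142 and 148 in TCR1640 males, 180 and 170 in SJL/J females, and 199 and 195 in SJL/J males. The strain groups did not overlap within either sex. The log2 ratio was -0.52 (-0.64 to -0.40) in females and -0.44 (-0.54 to -0.33) in males, and -0.48 ± 0.13 (SE) over both (edgeR adjusted p = 0.00105). Atp5a1, the alpha subunit, had 91.7 and 102 CPM in TCR1640 females, 110 and 113 in TCR1640 males, 134 and 129 in SJL/J females, and 142 and 145 in SJL/J males. Here too the columns labelled TCR1640 lay below those labelled SJL/J, with an average of -0.40 ± 0.13 (SE, edgeR adjusted p = 0.0105). Its exons overlap 129 bp of Haus1, which had 139 counts over all columns against 4093 for Atp5a1.

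The third of these, Atp5k, encodes the small membrane subunit e, which takes part in joining ATP synthase dimers. It had 12.5 and 14.5 CPM in TCR1640 females, 18.6 and 15.4 in TCR1640 males, 17.0 and 19.8 in SJL/J females, and 30.2 and 22.8 in SJL/J males. The average was -0.55 ± 0.17 (SE, edgeR adjusted p = 0.00883), and it did not pass without the first SJL/J male library (-0.43). A processed pseudogene, Atp5k-ps2, held 787 counts against 636 for Atp5k, so the assignment of reads between them is uncertain. The rest of complex V did not pass the test. Subunit c showed this in all 3 of its genes: Atp5g3 stood at -0.31 ± 0.14 (SE), Atp5g2 at -0.06 ± 0.20 and Atp5g1 at 0.12 ± 0.46. The gamma, delta and epsilon subunits of the rotor stalk, Atp5c1, Atp5d and Atp5e, had averages of 0.02, 0.04 and 0.08. The highest of the class was Atp5s, a coupling factor, at 0.29 ± 0.50 (SE).

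**Figure D4:**
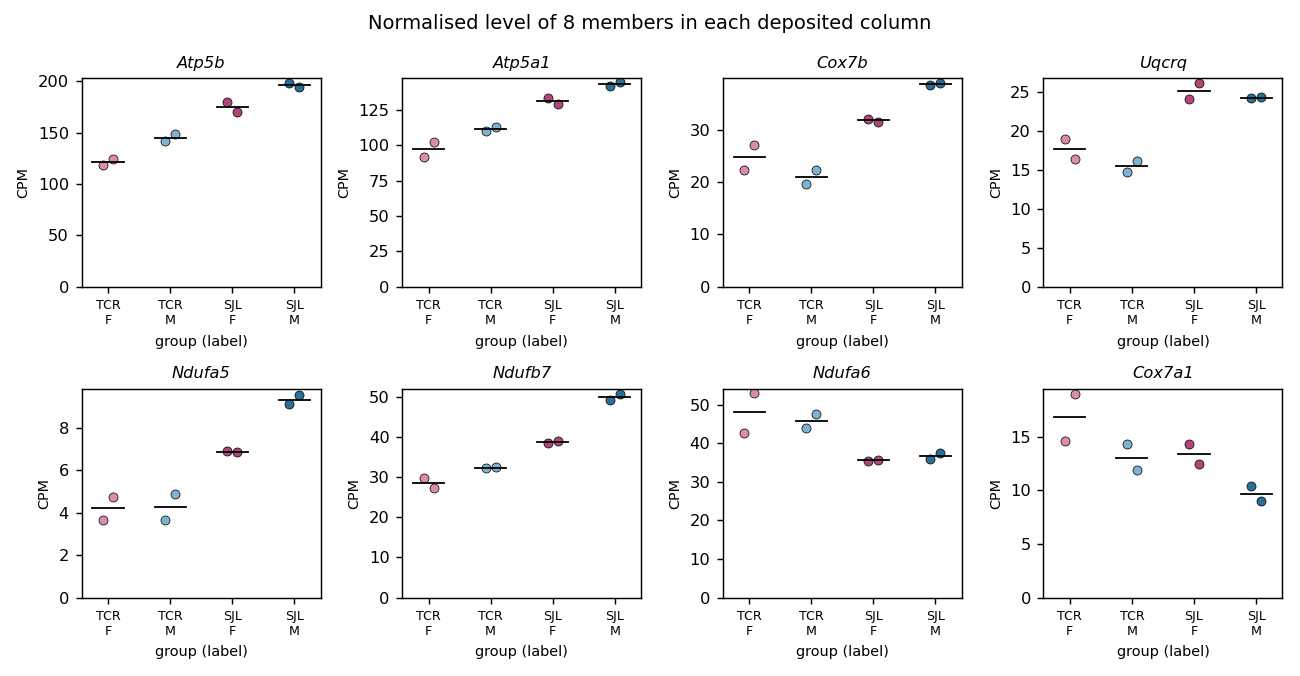
Level of 8 members in each deposited column, in CPM, with each vertical axis starting at 0. Points are columns and lines the summed samples of each labelled group (TCR, TCR1640; SJL, SJL/J; F, female; M, male). Atp5b, Atp5a1, Cox7b, Uqcrq, Ndufa5 and Ndufb7 are lower in the columns labelled TCR1640 within each sex, Ndufa6 is higher there, and Cox7a1 is lower in males than in females of each label.

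Complex I held 9 of the 14 members that fell, 8 of them among the 29 accessory subunits. It also held 44 of the 89 members tested, and 13.3% of all genes tested fell by this test. Those subunits surround the catalytic core and are needed for its assembly and stability. Their median ratio was -0.28 in females and -0.45 in males, and 25 of the 29 were below 0 in males. Over the 17 settings run the median ranged from -0.29 to -0.04 in females, with -0.04 in the columns numbered 1 alone, and from -0.51 to -0.31 in males. Their summed counts differed less, by -0.06 (-0.12 to -0.00) in females and by -0.19 (-0.24 to -0.14) in males. Ndufv3, the member of this class with the most counts, stood at 0.19 (0.04 to 0.33) in females and 0.13 (-0.00 to 0.27) in males.

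The lowest average was that of Ndufc2 (ENSMUSG00000030647, chromosome 7, 97400003 to 97407802, plus strand), a subunit of the membrane arm. It had 2.61 and 2.25 CPM in TCR1640 females, 3.27 and 2.73 in TCR1640 males, 5.91 and 2.36 in SJL/J females, and 6.78 and 8.02 in SJL/J males. The female groups overlapped and the male groups did not. The average was -1.07 ± 0.33 (SE, edgeR adjusted p = 0.00746), and it did not pass without the first SJL/J female library (-0.86).

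Ndufa5 (ENSMUSG00000023089, chromosome 6, 24518666 to 24528013, minus strand) belongs to the peripheral arm. Its columns held 3.65 and 4.74 CPM in TCR1640 females, 3.67 and 4.88 in TCR1640 males, 6.90 and 6.84 in SJL/J females, and 9.12 and 9.53 in SJL/J males. All 4 columns labelled TCR1640 lay below the 4 labelled SJL/J. The ratio was -0.71 (-1.37 to -0.06) in females, -1.12 (-1.70 to -0.56) in males and -0.93 ± 0.27 (SE) over both (edgeR adjusted p = 0.00472). In females its call at 1.5-fold was lost without the first TCR1640 female library (-0.54), the first SJL/J female library (-0.70) or the second (-0.71).

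Ndufb7 (ENSMUSG00000033938, chromosome 8, 83566671 to 83571626, plus strand), a subunit on the intermembrane side, was among the better counted. Its values were 30.0 and 27.4 CPM in TCR1640 females, 32.3 and 32.6 in TCR1640 males, 38.7 and 39.1 in SJL/J females, and 49.3 and 50.9 in SJL/J males. The labelled strains did not overlap in either sex, and the average was -0.54 ± 0.15 (SE, edgeR adjusted p = 0.00222).

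The other accessory subunits that fell were Ndufs5, Ndufa1, Ndufa9, Ndufb6 and Ndufs6. Ndufs5 averaged -0.54 ± 0.20 (SE, edgeR adjusted p = 0.028) and did not pass without the second TCR1640 female (-0.45), second TCR1640 male (-0.51) or second SJL/J female library (-0.43). Its call in females at 1.5-fold, -0.60 (-1.02 to -0.18), was also lost without the second TCR1640 female (-0.40) or second SJL/J female library (-0.38). X-linked Ndufa1 averaged -0.56 ± 0.19 (SE, edgeR adjusted p = 0.0171) and did not pass without the second library of any of the 4 groups, with values from -0.50 to -0.45. Ndufa9, at -0.63 ± 0.20 (SE, edgeR adjusted p = 0.0115), shares 67 bp with the antisense gene 1700018A23Rik, which held 3454 counts against 392. Ndufb6 averaged -0.65 ± 0.25 (SE, edgeR adjusted p = 0.0391), and its opposite partner Smim27 held 6173 counts against 249. It passed without the first TCR1640 female or second SJL/J female library, and not in the other 6 such fits (-0.68 to -0.53). Ndufs6 averaged -0.51 ± 0.20 (SE, edgeR adjusted p = 0.0434), overlaps Mrpl36 by 30 bp, and passed without the second TCR1640 female or first SJL/J female library but not in the other 6 fits (-0.52 to -0.42). Each of Ndufa9, Ndufb6 and Ndufs6 is therefore uncertain.

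Ndufa6 was the member that rose. It encodes a subunit of the peripheral arm (ENSMUSG00000022450, chromosome 15, 82350140 to 82354322, minus strand). Its columns held 42.7 and 53.1 CPM in TCR1640 females, 43.9 and 47.6 in TCR1640 males, 35.5 and 35.6 in SJL/J females, and 36.0 and 37.4 in SJL/J males. Every column labelled TCR1640 was above every column labelled SJL/J. The average was 0.38 ± 0.15 (SE, edgeR adjusted p = 0.042), just inside the threshold. It did not pass without the second TCR1640 female (0.29), second TCR1640 male (0.36), first SJL/J female (0.37), first SJL/J male (0.37) or second SJL/J male library (0.40). Ndufa7 had the same average, 0.38 ± 0.20 (SE), and did not pass (edgeR adjusted p = 0.157).

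Against 13.3% of all genes, 1 fell of the 7 core subunits, which carry the flavin and iron-sulfur centres of the complex. Their median was 0.00 in females (-0.16 to 0.02 over the settings run) and -0.18 in males (-0.31 to -0.06). Their summed counts differed by -0.08 (-0.20 to 0.03) in females and by -0.18 (-0.29 to -0.06) in males. The member that fell was Ndufv1, the NADH-binding subunit, with 11.7 and 8.73 CPM in TCR1640 females, 11.2 and 13.1 in TCR1640 males, 16.3 and 16.3 in SJL/J females, and 17.5 and 13.5 in SJL/J males. The groups were separate in females (-0.67, -1.09 to -0.26), where its call was lost without the second TCR1640 female library (-0.48), and in males the columns also did not overlap although the interval reached 0.03. The average of -0.50 ± 0.19 (SE, edgeR adjusted p = 0.0398) passed without the first TCR1640 female, second TCR1640 male or second SJL/J male library, and did not in the other 5 such fits (-0.49 to -0.40). The highest of the class was Ndufs3, at 0.14 ± 0.16 (SE). Of the 8 assembly factors, which help build complex I and are not part of it, 0 passed edgeR's test in the average and DESeq2 called 0. At an unadjusted p under 0.05, edgeR's test counted 1 of the 8, against 6338 of all 18391 genes. The averages of the assembly factors ran from -0.57 ± 0.39 (SE) for Ndufaf1 to 0.21 ± 0.26 for Ndufaf7.

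The promoters of members were searched for 3 motifs of factors known to bind respiratory chain genes. The nuclear respiratory factor 1 motif was taken as GCGCA, any base, then GCGC, the ETS motif as CCGGAAG and the YY1 motif as AAGATGGCG, on both strands, in the 250 bases before each RefSeq start on GRCm38.p6. Of the members, 74 matched by symbol, with 79 promoters. The nuclear respiratory factor 1 motif was in 19.0% of them, against 3.74% of the 32851 promoters of the table. The ETS motif was in 17.7% against 6.91%, and the YY1 motif in 1.27% against 0.606%. These shares were not tested. The median strain average was -0.24 for the 14 tested members with a nuclear respiratory factor 1 match and -0.21 for the 59 without.

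Among the members that fell, 12 had promoters in the table, and 5 of their 13 promoters held the nuclear respiratory factor 1 motif. The 60 bases around it are shown for the 4 genes concerned, 5′ to 3′ on the strand of the gene, to show how close it lies to the start, with the match in capitals. They were chosen after the values were seen. The match ends 40 bases before the start in Atp5k (chr5:108434415-108434474, minus strand), 88 in Ndufs5 (chr4:123718250-123718309, minus strand) and 6 in Ndufs6 (chr13:73328483-73328542, minus strand). In Ndufa5 it lies 180 and 16 bases before 2 annotated starts (chr6:24527682-24527741, minus strand). All these starts are those of RefSeq, and GENCODE M21 differs. The windows of Ndufa5 and Ndufs6 lie within the GENCODE genes, that of Atp5k spans the 5′ end of its gene, and that of Ndufs5 lies outside.
Atp5k: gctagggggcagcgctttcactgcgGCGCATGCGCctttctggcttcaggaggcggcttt
Ndufa5: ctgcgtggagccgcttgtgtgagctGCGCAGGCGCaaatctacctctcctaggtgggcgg
Ndufs5: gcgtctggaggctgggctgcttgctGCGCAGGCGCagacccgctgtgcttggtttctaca
Ndufs6: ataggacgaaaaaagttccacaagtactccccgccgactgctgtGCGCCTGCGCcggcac
Ndufa5 and Ndufs5 carry the same 10 bases, and Ndufs6 carries their reverse complement. A match is a description of these letters and shows no binding.

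The 4 subunits of complex II, succinate dehydrogenase, gave 0 calls in the average by edgeR's test, against 13.3% of genes lower and 11.8% higher. Of the 4, 1 had an unadjusted p under 0.05 by edgeR's test, against 6338 of all 18391 genes, and DESeq2 called 0. The summed ratio of the 4 subunits was 0.07 (-0.07 to 0.22) in females and -0.03 (-0.17 to 0.10) in males. Sdha, the flavoprotein that oxidises succinate, had 51.6 and 50.1 CPM in TCR1640 females, 46.7 and 50.7 in TCR1640 males, 42.6 and 42.9 in SJL/J females, and 43.8 and 42.6 in SJL/J males. Its columns did not overlap between labelled strains, yet the average of 0.21 ± 0.14 (SE) did not pass (edgeR adjusted p = 0.304). Sdhb, the iron-sulfur subunit, averaged -0.16 ± 0.15 (SE) and the membrane anchor Sdhd 0.08 ± 0.19. Sdhc, the other anchor, was the lowest at -0.45 ± 0.22 (SE). In females it was called lower, with 6.25 and 7.73 CPM labelled TCR1640 against 11.3 and 10.6 labelled SJL/J (-0.65, -1.16 to -0.15), a call lost without the first TCR1640 female (-0.51) or first SJL/J female library (-0.59).

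In complex III, which passes electrons from ubiquinol to cytochrome c, 1 of 8 subunits fell, against 13.3% of all genes. Uqcrq (ENSMUSG00000044894, chromosome 11, 53427922 to 53430831, minus strand), a small subunit at the ubiquinone site, had 19.0 and 16.5 CPM in TCR1640 females, 14.7 and 16.2 in TCR1640 males, 24.1 and 26.2 in SJL/J females, and 24.2 and 24.3 in SJL/J males. All columns labelled TCR1640 were lower, and the average was -0.58 ± 0.17 (SE, edgeR adjusted p = 0.00421). Uqcrfs1, the Rieske iron-sulfur protein, had intervals below 0 in females (-0.40, -0.76 to -0.04) and in males (-0.35, -0.66 to -0.04) but did not pass over both (-0.37 ± 0.17 SE, edgeR adjusted p = 0.107). Uqcrh was the highest of the class, at 0.17 ± 0.14 (SE).

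Complex IV, cytochrome c oxidase, had 1 of its 16 tested subunits fall, against 13.3% of all genes. Cox7b (ENSMUSG00000031231, chromosome X, 106015700 to 106022450, plus strand), a small membrane subunit needed for assembly, had 22.4 and 27.2 CPM in TCR1640 females, 19.6 and 22.2 in TCR1640 males, 32.0 and 31.6 in SJL/J females, and 38.6 and 38.9 in SJL/J males. The labelled strains were separate in both sexes. The ratio was -0.36 (-0.63 to -0.08) in females, -0.89 (-1.15 to -0.63) in males and -0.63 ± 0.16 (SE) over both, with the lowest adjusted p of the members (edgeR, 0.000566).

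The tissue isoforms of complex IV did not pass the strain test. Cox7a1 had the highest average of the complex, 0.38 ± 0.20 (SE), beside -0.21 ± 0.21 for its partner Cox7a2 and 0.25 ± 0.15 for Cox7a2l, a factor that joins complexes III and IV into supercomplexes. Cox4i1 averaged -0.26 ± 0.14 (SE) and Cox4i2, known from hypoxia and lung, -0.25 ± 0.54. Cox6a1 stood at -0.33 ± 0.15 (SE). Cox6b1 stood at -0.34 ± 0.16 (SE) and Cox6b2, known from testis, at -0.52 ± 0.36. Cox8a was at -0.00 ± 0.17 (SE) and Cox8b, known from muscle and brown fat, at 0.09 ± 0.73. Ndufa4, once placed in complex I and now counted with complex IV, averaged -0.36 ± 0.27 (SE).

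Calls within males that have not been named were Ndufa12 (-0.69, -1.37 to -0.01), Ndufs4 (-0.68, -1.07 to -0.30), Ndufaf3 (-0.68, -1.18 to -0.19, overlapping Impdh2) and Ndufa4 (-0.61, -1.16 to -0.06). The other 10 called lower in males were Ndufc2, Ndufa5, Ndufb6, Cox7b, Ndufa9, Ndufa1, Ndufs6, Uqcrq, Atp5k and Ndufb7. Of the 14, 9 kept the call when any 1 library was left out. A female library enters these ratios within males only through the scaling of library sizes. Atp5k lost it without the second TCR1640 male (-0.50) or first SJL/J male library (-0.42), and Ndufs4 without the first TCR1640 male (-0.47) or second SJL/J male library (-0.58). Ndufaf3 lost it without the second TCR1640 male (-0.55) or first SJL/J male library (-0.53). Ndufa12 lost it without the first TCR1640 female (-0.67), second TCR1640 male (-0.45), second SJL/J female (-0.67) or second SJL/J male library (-0.34). Ndufa4 lost it without the first TCR1640 female (-0.58), first or second TCR1640 male (-0.67 and -0.54), second SJL/J female (-0.58) or second SJL/J male library (-0.41).

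The strain ratios of females and males come from separate samples and can be set side by side. Of the 89 members, 52 (58.4%) were below 0 in both sexes and 14 (15.7%) above 0 in both, against 36.8% and 34.6% of all genes. Intervals lay below 0 in both sexes for 11 members (12.4%, against 13.4% of all genes): Atp5a1, Atp5b, Atp5g3, Atp5k, Cox7b, Ndufa5, Ndufb10, Ndufb7, Ndufs5, Uqcrfs1 and Uqcrq. Intervals lay above 0 in both for 1 member, Ndufa6 (1.12%, against 12.3%). Across members, Pearson's r between the sexes was 0.32 (Spearman's rho 0.42, n = 89 genes), lower than the 0.65 (0.56) over all 18391 genes. Genes are not independent replicates, and members share libraries and differ in depth.

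The libraries labelled TCR1640 and SJL/J also differed in markers of other cells and of division, and their part in the strain differences was not tested. By edgeR's test 13.3% of all genes fell and 11.8% rose. The 17 genes of a list for G2 and mitosis summed to 1002 and 1036 CPM in TCR1640 females and males and to 1477 and 1556 in SJL/J females and males, and 15 of the 17 fell by edgeR's test. The 11 erythroid and platelet markers summed to 40.5 and 38.0 CPM against 178 and 312, with Ppbp at 0 in both groups labelled TCR1640 and Gp1bb at 0 in its females. Of the 10 tested, 3 went the other way in females, with Hba-a1 the highest at 1.02, and all 10 were below 0 in males. The 10 neutrophil markers summed to 20.6 and 16.1 against 66.1 and 162, with Elane and S100a8 at 0 in both groups labelled TCR1640 and Ltf at 0 in its females. In that list Ly6g went the other way, at 1.21 in females and 1.45 in males (average 1.32, higher by edgeR's test). The 8 mast cell and basophil markers summed to 65.1 and 69.7 against 99.8 and 122, with Cma1 at 0 in TCR1640 females. Kit went the other way there, at 1.65 and 1.54 (average 1.60, higher by edgeR's test). The 10 T cell markers summed to 1672 and 1778 against 1428 and 1532, with 4 higher and 1 lower by edgeR's test, and 0 of the 10 were at 0 in any group. The 8 B cell markers summed to 45.4 and 48.6 against 27.3 and 30.4. The 8 monocyte and macrophage markers summed to 130 to 141 CPM and the 7 stromal and endothelial markers to 85.7 to 92.8 over the 4 groups, with Col3a1 at 0 throughout. Csf1r made up 114 to 131 CPM of the monocyte sum. Lyz2 fell by edgeR's test, with 3 and 2 counts in TCR1640 females and males against 38 and 61 in SJL/J. Its ratios were -3.58 (-5.92 to -1.93) in females and -5.29 (-8.37 to -3.37) in males. Lyz2 passed the filter on low counts only through the groups labelled SJL/J, where it was higher, so its result partly follows from the filter. Itgam averaged 1.08 ± 0.48 (SE) and did not pass.

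Between sexes, the members were mostly higher in males labelled SJL/J than in females of that label. The median log2 ratio of male over female was 0.18 over the 89 members, against 0.00 over all genes, and 66 of the 89 were above 0. The summed counts were higher by 0.17 (0.14 to 0.20). At 1.5-fold 4 members were called higher and 1 lower, with a background of 3.07% of genes higher and 4.02% lower, and the intervals of 26 members lay above 0, against 9.8% of genes. The same comparison in the libraries labelled TCR1640 gave a median of 0.03 and a sum of 0.08 (0.05 to 0.11). There 1 member was called higher and 1 lower, with a background of 2.76% and 5.37%. The sex comparisons use the same samples as the strain comparisons, so a high SJL/J male sample enters both.

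**Figure D5:**
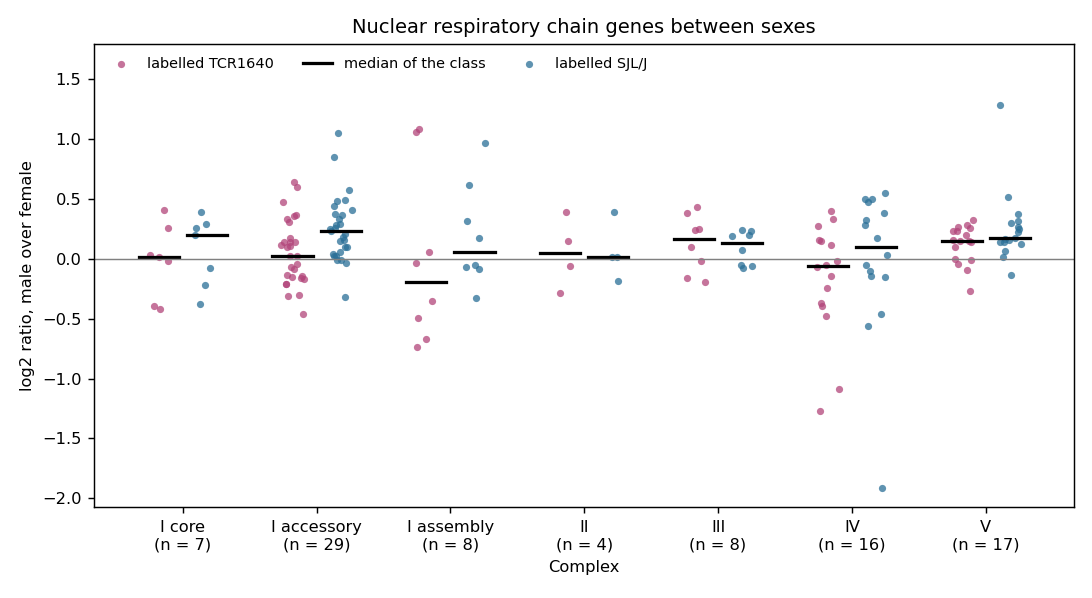
Log2 ratio of male over female libraries for each member tested, by complex, in mice labelled TCR1640 and SJL/J. Each point is 1 member and black bars are class medians. In complex V, 16 of 17 members lie above 0 in SJL/J and 13 of 17 in TCR1640, and the complex I accessory subunits have a median of 0.23 in SJL/J and 0.03 in TCR1640.

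Over both labelled strains, 0 members passed edgeR's test for sex, with a background of 0.13% of genes higher and 0.875% lower in males. At an unadjusted p under 0.05 it counted 8 of the 89 members, against 1681 of all 18391 genes. DESeq2 called 0 members (0.0217% of genes higher and 0.0163% lower). With the 8 columns entered as separate samples, edgeR called 24 members (6.92% of genes higher and 10.5% lower). The sex ratio was above 0 in both labelled strains for 43 members (48.3%, against 27.2% of genes). Across members r between the strains' sex ratios was 0.36 (rho 0.28, n = 89 genes), against 0.13 (0.11) over all genes.

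The summed counts of complex V were higher in males by 0.18 (0.13 to 0.23) in TCR1640 and by 0.20 (0.15 to 0.25) in SJL/J. Intervals lay above 0 in both labelled strains for 4 of its genes, Atp5a1, Atp5b, Atp5d and Atp5f1, and 2.14% of all genes had such intervals. Atp5b stood at 0.26 (0.14 to 0.38) in TCR1640 and 0.17 (0.07 to 0.28) in SJL/J. Atp5f1, the peripheral stalk subunit b, had 94.9 and 97.8 CPM in TCR1640 females and 110 and 117 in the males, and 104 and 101 in SJL/J females and 126 and 117 in the males. Its exons overlap Wdr77 and Gm42890, whose counts were 113 and 11 against 3692. Male columns of Atp5f1 were higher than female columns in each label.

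Intervals lay below 0 in both labelled strains for 3 members (3.37%, against 3.58% of genes): Cox7a1, Ndufb2 and Ndufs1. Cox7a1 (chromosome 7, 30184144 to 30186078) had 14.6 and 19.0 CPM in TCR1640 females against 14.3 and 11.9 in males, and 14.3 and 12.5 in SJL/J females against 10.4 and 9.03 in males. Its partner isoform Cox7a2 stood the other way, at 0.33 (-0.10 to 0.78) in TCR1640 and 0.55 (0.13 to 0.98) in SJL/J. Ndufb2 overlaps Gm16272 and Braf, and Ndufs1 overlaps Eef1b2 and Ino80dos, so these are uncertain.

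The members called between sexes rested on few counts. In SJL/J the calls were Atp5g1 (1.29, 0.16 to 2.52), Ndufb4 (1.05, 0.26 to 1.88), Ndufaf4 (0.97, 0.25 to 1.72) and Ndufc2 (0.86, 0.22 to 1.51) higher in males and Cox8b (-1.92, -4.38 to -0.03) lower. Atp5g1 had 2 and 8 counts in female columns and 13 and 10 in male ones, and Cox8b 7 and 5 against 2 and 1. Cox8b passed the filter on low counts only through the female groups, where it was higher, so its call partly follows from the filter. It was tested in 13 settings, against 18 for each other SJL/J call. In TCR1640, Ndufaf5 was higher in males (1.06, 0.07 to 2.15) and Cox4i2 lower (-1.27, -2.62 to -0.03), with 10 and 7 counts of Cox4i2 in female and 3 and 6 in male columns. Each of these 7 calls was lost without at least 1 library. Atp5g1 lost it without the first SJL/J female (0.64) or first SJL/J male library (1.05), Cox8b without the first or second SJL/J male library (-2.53 and -1.48), and Ndufaf4 without the first SJL/J female library (0.80). Ndufb4 lost it without the second SJL/J female (0.95) or second SJL/J male library (0.72), and Ndufc2 without the same libraries (0.32 and 0.72). Ndufaf5 lost it without the first TCR1640 female (0.53), first TCR1640 male (1.11) or second TCR1640 male library (1.01), and Cox4i2 without the first TCR1640 female (-0.93) or first TCR1640 male library (-0.90).

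The 3 X-linked members had 0 calls between sexes. Ndufa1 had male over female ratios of -0.04 (-0.45 to 0.37) in TCR1640 and 0.29 (-0.07 to 0.64) in SJL/J, and Cox7b -0.25 (-0.53 to 0.04) and 0.28 (0.04 to 0.53). Ndufb11, which overlaps Rbm10, stood at 0.02 (-0.18 to 0.23) and 0.10 (-0.13 to 0.33). Between SJL/J females and males the neutrophil and the erythroid and platelet sums above also differed, 66.1 against 162 and 178 against 312 CPM, while in TCR1640 they were 20.6 against 16.1 and 40.5 against 38.0. Their part in the sex differences was not tested.

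Exon overlap on the opposite strand concerned 29 members in 33 pairs, and the partner had the higher count in 19 pairs. Cox5a had 620 counts against 23488 in Gm26631 (269 bp shared), Uqcrc2 989 against 16502 in Pdzd9, and Ndufb5 369 against 10404 in Mrpl47. Among the 18 pairs with a higher partner in which the member passed the filter, member and partner had strain ratios of the same sign in 11 in females and 12 in males. Of the members without such overlap 62 were tested, of which 0 were called higher and 4 lower in females, 0 and 10 in males, and 1 and 10 in the average. Among all genes without overlap these shares were 9.15% and 10.8%, 10.1% and 14.0%, and 9.58% and 12.1%. The members' medians were -0.15, -0.28 and -0.21. Counting on the opposite strand would affect members without overlap as well, so this subset is no check of the strand setting. Processed pseudogenes named after members numbered 12 and held 3741 counts, against 76632 in the members. Beside Atp5k-ps2, the largest were Uqcrh-ps1 and Uqcrh-ps2, with 943 and 895 counts against 2451 for Uqcrh, and Ndufb4c held 135 against 112 for Ndufb4, so those members are uncertain too.

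Genes that work with the chain were read from lists chosen with earlier results of these data known. Among 8 chain genes outside the symbol rule, 0 rose and 2 fell by edgeR's test, with a median average of -0.33. Higd1a, which associates with complex IV, fell by 0.80 on the log2 scale (SE 0.18, edgeR adjusted p = 0.000115) and overlaps Gm47112. Gpd2, which feeds electrons from glycerol 3-phosphate, fell by 0.70 (SE 0.22, edgeR adjusted p = 0.0067) and overlaps A930012O16Rik. Cyc1, the haem subunit of complex III, averaged -0.12 ± 0.16 (SE), and its partner cytochrome c, Cycs, -0.25 ± 0.26. The highest, Sqor, a sulfide oxidoreductase, stood at 0.28 ± 0.34 (SE).

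Of the 14 tricarboxylic acid cycle genes, which supply NADH and succinate to the chain, 0 rose and 2 fell, with a median of -0.25. Suclg1, a subunit of succinyl-CoA ligase, fell by 0.61 (SE 0.16, edgeR adjusted p = 0.00081) and Idh3a, of isocitrate dehydrogenase, by 0.44 (SE 0.17, edgeR adjusted p = 0.0472). The lowest was Suclg2 at -0.70 ± 0.30 (SE, edgeR adjusted p = 0.0689) and the highest Idh2 at 0.14 ± 0.17. Of 38 tested assembly factors 1 rose and 2 fell, with a median of -0.05. Cox15, of haem A synthesis, averaged -0.95 ± 0.15 (SE, edgeR adjusted p = 7.25e-09) and overlaps Entpd7 and Cutc. Cox10, of the same pathway, averaged 0.67 ± 0.24 (SE, edgeR adjusted p = 0.0259) and overlaps 9630013K17Rik. The other that fell, Sco2, a copper chaperone of complex IV, averaged -0.43 ± 0.14 (SE) and overlaps Ncaph2.

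Among 77 tested mitochondrial ribosomal protein genes 3 rose and 4 fell, with a median of -0.12. The list ran from Mrps28 at -1.13 ± 0.47 (SE) to Mrpl22 at 0.59 ± 0.49, and neither passed. Among 13 genes of coenzyme Q synthesis 0 rose and 2 fell, with a median of -0.07. Coq3, a methyltransferase, had the lowest average, -1.22 ± 0.41 (SE, edgeR adjusted p = 0.0171), and Coq10b, which binds coenzyme Q, had the highest, 0.74 ± 0.43. Coq8a, the other that fell, averaged -1.02 ± 0.22 (SE) and overlaps Cdc42bpa. The counts of genes that rose and fell in each of these lists compare with a background of 11.8% of genes that rose and 13.3% that fell.

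Of 16 tested regulators of mitochondrial biogenesis 1 rose and 0 fell by edgeR's test, against 11.8% and 13.3% of all genes, with a median of -0.02. At an unadjusted p under 0.05 there were 3 of the 16, against 6338 of all 18391 genes. Pprc1, a coactivator related to Ppargc1a, rose by 0.35 (SE 0.13, edgeR adjusted p = 0.0321) and overlaps Ldb1. The coactivator Ppargc1a itself had 0 counts in both groups labelled TCR1640 and 3 and 2 in SJL/J females and males, and was not tested. Ppargc1b averaged 0.23 ± 0.33 (SE), Nrf1, which encodes nuclear respiratory factor 1, 0.12 ± 0.16, and Tfam, which packages and transcribes mitochondrial DNA, 0.17 ± 0.20. Myc averaged -0.13 ± 0.13 (SE), and the lowest of the list, Tfb1m, -0.35 ± 0.42. None of these 5 passed the test.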

How the data were processed

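RNA sequencing libraries were prepared with the KAPA stranded mRNA kit from 500 ng of RNA, per the labels' protocols. The values deposited by the authors are raw counts of reads per Ensembl identifier, in whole numbers. For the steps before that, the submitters' processing notes list bcl2fastq 2.17, HTSeq, Bowtie2 and mm10. Strand setting, annotation and filters: not given in the sources used here. The labels do not state that the 2 columns of a group are from different mice.

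Symbols, positions and exons were taken from GENCODE mouse M21 on GRCm38, in which 147 identifiers of the table were not found. Another identifier with the symbol Atp5o matched the rule and had no row. Columns were compared by chi-square without Gm43333, over genes reaching 20 counts. Summed samples were scaled with TMM in edgeR 4.0.16 (R 4.3.3), and filterByExpr (minimum count 10, minimum total 15) left 18391 genes. Pairs of groups were compared by ratios of summed counts with exact conditional 95% intervals. Reads carry no molecular identifiers, so intervals cover counting error only. Averages over sex or strain came from an additive quasi-likelihood model (common coefficient of variation 9.82%), two-sided, with Benjamini-Hochberg adjustment at 0.05, and the SE was taken as the size of the log2 change divided by the root of its F statistic. Alternatives were RLE and upper-quartile scaling, TMM over genes without opposite-strand overlap, other filters and folds, DESeq2 1.42.0, fits of 8 columns with and without the replicate number as a block, and leaving out each library. The fits were tested on simulated data.

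Members named in the text were those called in a comparison (up to 12 per direction, or 10 for the sex average), the highest and lowest of each class, the isoform families, complex II, and members under the filter. From each list the highest and lowest genes were named, with Ppargc1a, Ppargc1b, Nrf1, Tfam, Myc, Cyc1 and Cycs. Ndufv3, Uqcrfs1, Atp5c1, Atp5d, Atp5e, Atp5f1, the X-linked and overlapped members and the other list genes that passed were added after their values were seen. Some items are not reported here. The members and lists were chosen with earlier results of these data known.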

Additional observations from a re-analysis of the deposited data

Results flagged for a closer look

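Ndufa13, an accessory subunit of complex I, had strain ratios on opposite sides of 0 in the sexes. The log2 ratio of the libraries labelled TCR1640 over SJL/J was 0.27 (0.03 to 0.50) in females and -0.24 (-0.46 to -0.03) in males. Its columns held 38.0 and 42.2 CPM in TCR1640 females, 37.8 and 35.5 in TCR1640 males, 34.7 and 32.1 in SJL/J females, and 43.3 and 43.4 in SJL/J males. The labelled strains did not overlap within either sex. The difference between the sexes was not tested, and 375 bp of its exons overlap Tssk6, so the gene is uncertain.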

How the results depend on the processing

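Counts of members called are given here with the main count first. A setting that calls more members can call more of all genes as well. In the fit of 8 columns 25.1% of genes were higher and 24.5% lower for the strain average, and 6.92% and 10.5% for the sex average. For most other settings the share of all genes is not given. The counts therefore describe the settings and show nothing particular to the members. With the 8 columns fitted as separate samples in edgeR, calls went from 4 to 15 for strain in females, 14 to 25 in males, 2 to 11 for sex in TCR1640, 5 to 9 in SJL/J, 15 to 38 for the strain average and 0 to 24 for the sex average. With the replicate number as a block in that fit they were 16, 25, 11, 11, 38 and 27, and the numbers did not pair the samples, with r of -0.015 to 0.023 between groups for the deviations of same-numbered columns over 18391 genes. DESeq2 called 0 for the strain average. A fold of 1.2 gave 20, 32, 15 and 22 for the 4 pairs of groups, and a fold of 2 gave 0 for strain in females, 2 in males and 3 for sex in SJL/J. The columns numbered 1 alone gave 5 for sex in TCR1640 and 6 for the strain average, and those numbered 2 alone 7 for strain in females, 1 for sex in TCR1640 and 8 for the strain average.

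Leaving out 1 library gave 3 to 4 and 12 to 15 calls for strain in females and males and 10 to 14 for the strain average. It gave 0 to 5 for sex in TCR1640, with 0 without the first TCR1640 female or first TCR1640 male, 4 without the second TCR1640 female and 5 without the second TCR1640 male. It gave 3 to 5 for sex in SJL/J, with 3 without the first SJL/J female or second SJL/J male. Over the settings run, the median over members ran from -0.16 to -0.08 for strain in females, -0.30 to -0.18 in males, -0.23 to -0.17 in the strain average, -0.01 to 0.14 for sex in TCR1640 and 0.14 to 0.22 in SJL/J. Among the members called in a comparison, the value changed sign in 0 of the settings run. These settings do not check the spread over mice.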
